A study of Mus musculus with 6 samples.

Results

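The genes described here are 10 genes of the TGF-beta pathway and of the RUNX factors that act with it in class switching to IgA: Tgfb1, Tgfbr1, Tgfbr2, Smad2, Smad3, Smad4, Smad7, Ski, Runx1 and Runx3. They are the rows of the expression table whose Ensembl identifiers map to these symbols. The symbols were chosen with earlier results of these data known. All 10 were found among 39179 listed genes, and all 10 were among the 12785 genes with enough expression to be tested, which means 1 TPM or more in 3 pools. RNA-Seq was done on B cells from the Peyer's patches of the ileum, which are gut-associated lymphoid tissue. GC B cells were sorted as Fas+GL7+ and naive B cells as Fas-GL7-, both from female WT C57BL/6 littermates aged 12 wk, for which no transgene or treatment is named. Each population was measured in 3 pools of 5 mice, so that every value is a mean over the cells and mice of a pool.

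TGF-beta is secreted in a latent form and, once released, brings together the type II receptor TGFBR2 and the type I receptor TGFBR1. TGFBR1 then phosphorylates SMAD2 and SMAD3, which bind SMAD4 and enter the nucleus, while SMAD7 blocks the receptor and SKI holds SMAD complexes in a repressed state. RUNX1 and RUNX3 bind DNA with the partner CBFB. In B cells, SMADs and RUNX factors act together on the germline promoter of the IgA constant region, whose transcription precedes switching, and Peyer's patches are a main site of this switching.

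The letters that RUNX and SMAD proteins bind were looked for in promoter sequence. Sequence is printed for Runx1 and Runx3, because of matches found in them, and for Ski, the gene with the largest change. Tgfb1, Tgfbr2 and Smad3 were also lower in GC B cells, and their sequence was searched but is not printed. RefSeq sequence (GRCm38.p6), from 250 bases before to 50 bases after a start site, was given for 7 of the 10 genes, with 10 start sites. The RUNX core was searched as TGTGGT or, on the other strand, ACCACA. The first start sites of Runx1 and Runx3 both carried 2 copies of ACCACA, printed in capitals below, within a shared stretch of 18 bases that starts with ca and ends with ag.
Runx1, chr16:92826026-92826053, minus strand: ataaacaACCACAgaACCACAagttggg
Runx3, chr4:135120504-135120531, plus strand: tccctcaACCACAgaACCACAaggccag
In Runx1 the copies began 29 and 37 bases after the start, in the transcribed part of the gene. In Runx3 they began at -134 and -126, upstream of the gene. The 18 bases occurred in 4 of 32851 promoter windows, those of Runx1, Runx2, Runx3 and Gm16225, and the last of these lies over the Runx3 window on the opposite strand. The RUNX core alone was present in 16.8% of all windows. No other of the 10 start sites held it.

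The palindrome GTCTAGAC, to which SMAD3 and SMAD4 bind, was found at -175 of the second start of Runx3, within the span of that gene, and is in capitals in the following 100 bases.
Runx3, chr4:135152324-135152423, plus strand: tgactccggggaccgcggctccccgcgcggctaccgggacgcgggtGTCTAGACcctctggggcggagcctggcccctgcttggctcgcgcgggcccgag
It occurred in 70 of 32851 windows (0.213%). The shorter SMAD box, CAGAC or GTCTG, was in 49.6% of windows and in 4 of the 10 described here, and neither it nor the palindrome overlaps the RUNX core. The 250 bases upstream of Ski, the gene with the largest change, follow. They held none of these motifs.
Ski, chr4:155222536-155222785, minus strand: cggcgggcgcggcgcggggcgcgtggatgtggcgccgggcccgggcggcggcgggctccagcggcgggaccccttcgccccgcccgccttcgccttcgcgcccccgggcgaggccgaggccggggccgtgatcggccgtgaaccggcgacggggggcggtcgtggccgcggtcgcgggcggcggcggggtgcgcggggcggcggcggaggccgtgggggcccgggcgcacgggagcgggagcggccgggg
G and C made up 87.6% of this stretch, against a median of 52.4% over all windows. Upstream of the other start sites searched, the share ran from 45.6% (first start of Runx1) to 78.8% (second start of Runx3). It was 74.8% at the first start of Tgfbr1, a gene that was higher in GC B cells. The motif matches describe letters only, and binding was not measured.

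GC and naive B cells differed widely, so the 10 genes have to be read against all others. Of 12785 genes tested with limma on log2(TPM + 1), 65.6% were called at an adjusted p under 0.05, with 35.5% higher and 30.1% lower in GC B cells. TPM is the share of all transcripts, scaled to a sum of 1000000 per pool, a level that takes transcript length into account. Among the 10 genes, 2 were called higher (Tgfbr1 and Smad2), 7 were called lower (Tgfb1, Tgfbr2, Smad3, Smad7, Ski, Runx1 and Runx3) and 1 was not called (Smad4). In 9 of the 10 the GC pools and the naive pools did not overlap, as in 70.7% of all tested genes. Their median log2 fold change was -0.70, and that of all tested genes was 0.03. Smad3 was tested because of its level in the naive pools, since its mean in GC B cells was under 1 TPM.

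**Figure D1:**
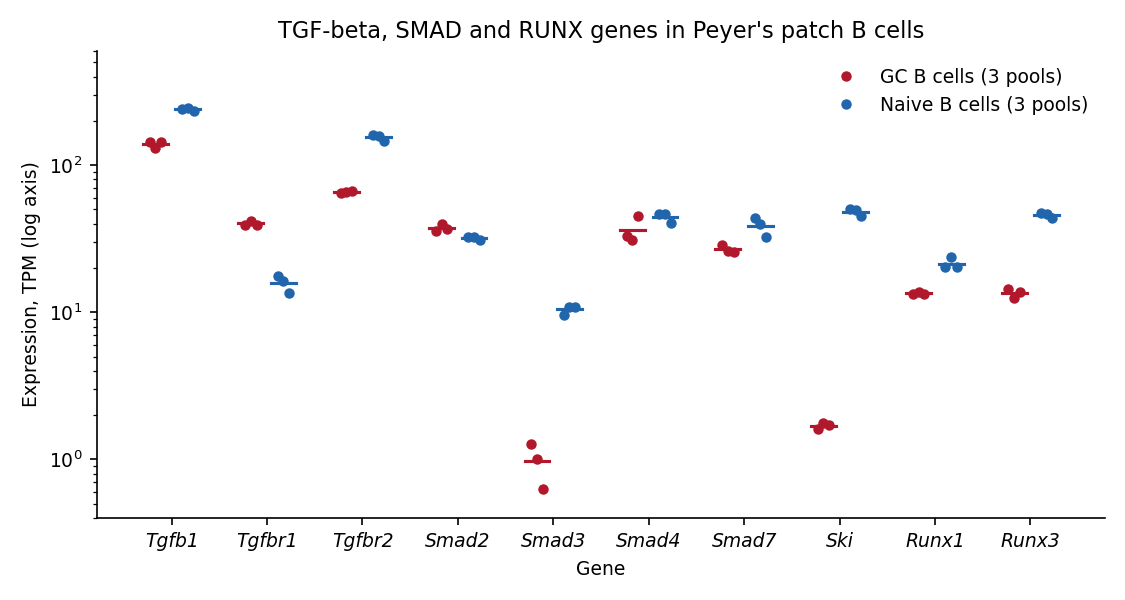
Expression of the 10 genes in TPM (log axis) in each of the 3 GC pools (red) and 3 naive pools (blue), with a line at each mean. Ski and Smad3 stood at 1.69 and 0.968 TPM in GC B cells, far below the other 8 genes, and Smad4 is the gene whose groups overlapped.

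In both populations Tgfb1 had the highest TPM of the 10 genes, followed by Tgfbr2. In GC B cells the order then ran Tgfbr1, Smad2, Smad4, Smad7, Runx1, Runx3, Ski and Smad3. The pool ranges of neighbours overlapped between Tgfbr1 and Smad2, between Smad2 and Smad4 and between Runx1 and Runx3. In naive B cells the order after Tgfbr2 was Ski, Runx3, Smad4, Smad7, Smad2, Runx1, Tgfbr1 and Smad3. There the neighbours from Ski to Smad2 overlapped, so that only the places of Tgfb1, Tgfbr2, Runx1, Tgfbr1 and Smad3 were set apart from their neighbours by more than the spread. Ski passed from the third place in naive B cells to the ninth in GC B cells, and Tgfbr1 from the ninth to the third.

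Tgfb1, the ligand with the highest level, was expressed by both populations and was lower in GC B cells. Its level was 145, 132 and 143 TPM in GC pools 1, 2 and 3, and 243, 247 and 232 TPM in the naive pools. Every naive pool was above every GC pool. The means were 139.7 ± 7.03 TPM in GC against 240.5 ± 7.53 TPM in naive B cells (SD, n = 3 pools each), a level 1.72-fold higher in naive B cells. The log2 fold change was -0.78 (SE 0.052, limma adjusted p = 2.83e-05). Even so, Tgfb1 exceeded 91.1% of tested genes in GC B cells. TPM is a share of all transcripts, so the amount of RNA per cell was not measured. In pools of sorted cells, fewer expressing cells and a smaller share in each cell cannot be told apart. Both limits hold here and for any gene that follows.

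Of 8 other TGF-beta and activin ligands, 2 were tested and both were lower in GC B cells, against 30.1% of all tested genes. Gdf11, which passed the filter on low values only through the naive pools and is a ligand that signals through activin receptors, was at 0.517 ± 0.107 TPM in GC against 26.7 ± 1.73 TPM in naive B cells (log2 fold change -4.19). Tgfb3 was low in both populations, at 2.35 ± 0.276 and 3.75 ± 0.389 TPM (log2 fold change -0.50). The other 6 ligands stayed under 1 TPM in all pools. Among 12 genes for the latency and activation of TGF-beta, 5 were tested. Of these, 1 was higher and 1 was lower (median log2 fold change 0.20), against 35.5% and 30.1% of all tested genes. The pair that changed are both surface proteins that hold latent TGF-beta, and they moved in opposite directions. Lrrc32, which passed the filter only through the GC pools, was at 7.10 ± 0.358 TPM in GC against 0.389 ± 0.0593 TPM in naive B cells (log2 fold change 2.54). Nrros was at 13.4 ± 1.2 and 121 ± 10.4 TPM (log2 fold change -3.08). Ltbp1, Itgav and Furin were not called.

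The receptors moved in opposite directions. Tgfbr1, the type I receptor with the kinase that phosphorylates SMADs, was measured at 39.5, 41.9 and 39.3 TPM in GC pools 1, 2 and 3 and at 17.6, 16.4 and 13.6 TPM in the naive pools. All GC pools lay above all naive pools, with means of 40.3 ± 1.45 and 15.9 ± 2.08 TPM, a 2.54-fold difference. This was a log2 fold change of 1.30 (SE 0.103, limma adjusted p = 6.28e-05). Tgfbr2, the type II receptor that binds the ligand, was measured at 64.3, 65.6 and 67.2 TPM in GC pools 1, 2 and 3 and at 161, 159 and 146 TPM in the naive pools. Here the naive pools were all higher, with means of 155 ± 8.32 against 65.7 ± 1.45 TPM, a 2.36-fold difference in the other direction. Its log2 fold change was -1.23 (SE 0.054, limma adjusted p = 4.28e-06).

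Because both receptors are needed in 1 complex, their ratio within a pool was also compared, a quantity that does not depend on how a pool is scaled. The ratio of Tgfbr1 to Tgfbr2 in TPM was 0.614, 0.639 and 0.585 in the GC pools and 0.109, 0.103 and 0.0931 in the naive pools. Transcripts of the type II receptor were thus in excess in every pool, and the excess was smaller in GC B cells. The mean log2 ratio differed by 2.59. With 3 pools against 3, the exact two-sided permutation test cannot give a p below 0.1, and it gave 0.1, with 0.1 also after Benjamini-Hochberg adjustment over the 3 ratios described.

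Other receptors of the superfamily were mostly at low levels. Of 12 genes, 4 were tested, with 2 higher and 2 lower, against 35.5% and 30.1% of all tested genes. In 3 of these 4 (Bmpr1a, Tgfbr3 and Acvr2a) every pool of one population was under 1 TPM. They passed the filter only through the population in which they were high. Their groups therefore could not overlap, although this does not by itself lead to a call. Their values are given as a description. Bmpr1a, a type I receptor for bone morphogenetic proteins, was at 10.5 ± 0.310 TPM in GC against 0.0681 ± 0.0684 TPM in naive B cells (log2 fold change 3.43). Tgfbr3, a coreceptor that presents TGF-beta to TGFBR2, was at 2.95 ± 0.236 and 0.0361 ± 0.0412 TPM (log2 fold change 1.93). The 2 that were lower were both activin receptors. Acvr1b was at 19.3 ± 0.970 and 23.4 ± 1.68 TPM (log2 fold change -0.26, limma adjusted p = 0.0263). Acvr2a was low in both populations, at 0.555 ± 0.244 against 1.40 ± 0.258 TPM (log2 fold change -0.63).

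**Figure D2:**
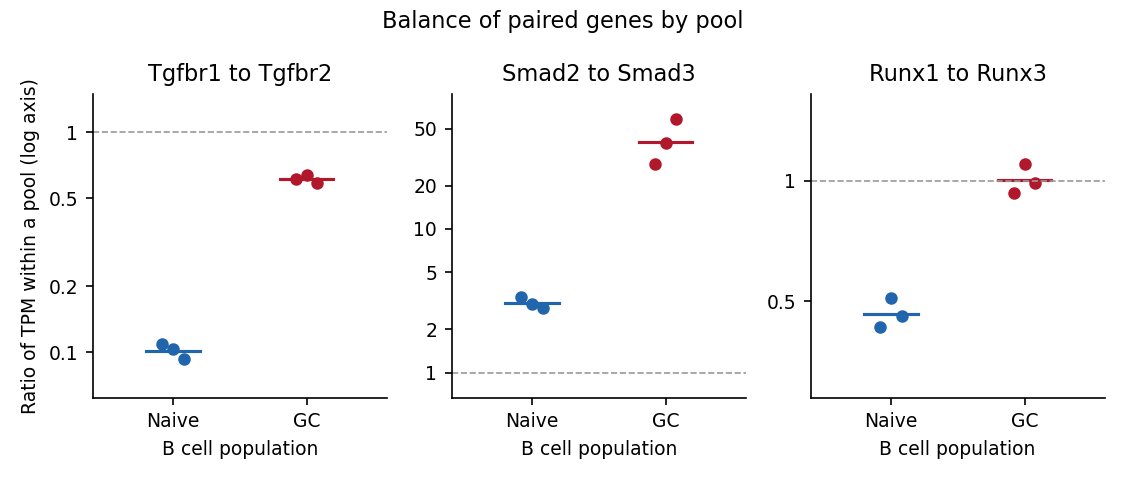
Ratio of TPM of 2 related genes within each pool (log axes, each panel with its own range), with a line at the mean log2 ratio of 3 pools and a dashed line at a ratio of 1. The GC pools lay above the naive pools in all 3 panels, and the ratio of Runx1 to Runx3 ran from 0.931 to 1.10 in GC B cells.

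The SMADs that receptors activate did not move together. Smad3 was measured at 1.27, 1.01 and 0.627 TPM in GC pools 1, 2 and 3 and at 9.63, 10.9 and 10.9 TPM in the naive pools. The means were 0.968 ± 0.322 and 10.5 ± 0.733 TPM, a level 10.8-fold higher in naive B cells, and the groups were far apart. On log2(TPM + 1), a scale that understates a change at low levels, the fold change was -2.55 (SE 0.154, limma adjusted p = 1.74e-05). The GC values rest on few reads, about 49, 36 and 22 fragments in pools 1, 2 and 3 as estimated from FPKM, depth and the longest transcript, against 413, 629 and 405 in the naive pools. The coefficient of variation of Smad3 over the GC pools was 33.3%, so its level in GC B cells is known less precisely than that of any other of the 10 genes.

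Smad2, the other receptor-activated SMAD of this pathway, was only slightly higher in GC B cells. It was measured at 35.8, 39.8 and 36.7 TPM in GC pools 1, 2 and 3 and at 32.2, 32.7 and 30.9 TPM in the naive pools. The GC pools were all higher, but the log2 fold change was only 0.22 (SE 0.064, 95% interval 0.07 to 0.38), with a limma adjusted p of 0.0218. The call was lost without GC replicate 2 (log2 fold change 0.18, limma adjusted p = 0.0716), without naive replicate 1 (0.23, 0.0531) and without naive replicate 3 (0.20, 0.0506). It was also lost under quantile normalization (0.14, 0.0813) and after a correction for transcript length and GC content (0.11, 0.133), so that the number of genes called higher fell from 2 to 1 in these cases. A difference of this size was exceeded by most genes, since 23.2% of the tested genes had a smaller absolute log2 fold change.

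The ratio of Smad2 to Smad3 in TPM was 28.2, 39.4 and 58.5 in the GC pools and 3.35, 3.01 and 2.84 in the naive pools. Smad2 was the more abundant transcript in every pool, and the ratio was higher in every GC pool. The mean log2 ratio differed by 3.72 (exact permutation p = 0.1, the smallest possible, and 0.1 after adjustment). With a pseudocount of 1 TPM the difference was 2.77, since Smad3 was near that level in the GC pools. The ratio was highest in GC pool 3, where Smad3 was lowest.

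Smad4, the partner shared by all SMAD signals, was the gene that was not called. It was measured at 33.0, 30.8 and 45.4 TPM in GC pools 1, 2 and 3 and at 46.5, 46.6 and 40.3 TPM in the naive pools. GC pool 3 was above naive pool 3, so the groups overlapped, with means of 36.4 ± 7.87 and 44.5 ± 3.63 TPM. The log2 fold change was -0.30 (95% interval -0.67 to 0.07, limma adjusted p = 0.128). The interval leaves room for no change and for a fall as large as that of Runx1. The coefficient of variation over the GC pools was 21.6%, where the median for genes between 10 and 100 TPM was 6.40%. Without GC replicate 3 the log2 fold change was -0.46 and the gene was called lower (limma adjusted p = 0.00820). Quantile normalization also gave a call, at -0.40 (limma adjusted p = 0.0419).

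Of the 4 other SMADs, 2 were tested. Smad1, which carries signals of bone morphogenetic proteins, was lower in GC B cells, at 2.82 ± 0.589 against 5.69 ± 0.442 TPM (log2 fold change -0.82). Smad5, with the same role, was not called, at 13.7 ± 0.832 and 12.4 ± 0.467 TPM. Smad6 and Smad9 were under 1 TPM in all pools.

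The inhibitors Smad7 and Ski were both lower in GC B cells, by very different amounts. Smad7, which is induced by TGF-beta and blocks the type I receptor, was measured at 28.7, 26.3 and 25.7 TPM in GC pools 1, 2 and 3 and at 43.4, 39.7 and 32.7 TPM in the naive pools. The groups did not overlap, but naive pool 3 came near the GC pools, and the coefficient of variation over the naive pools was 14.1%. The means were 26.9 ± 1.60 and 38.6 ± 5.45 TPM, with a log2 fold change of -0.50 (SE 0.113, limma adjusted p = 0.00790).

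Ski, a corepressor that binds SMAD complexes, showed the largest change of the 10 genes. It was measured at 1.61, 1.77 and 1.70 TPM in GC pools 1, 2 and 3 and at 50.3, 49.9 and 44.8 TPM in the naive pools. The means were 1.69 ± 0.0799 and 48.4 ± 3.04 TPM, a level 28.5-fold higher in naive B cells. Its log2 fold change was -4.19 (SE 0.087, limma adjusted p = 2.75e-07), and 63 of the 12785 tested genes had a lower value. Ski exceeded 75.3% of the tested genes in naive B cells and 9.99% in GC B cells. The GC values stood on about 68, 68 and 65 fragments and varied by 4.71% (coefficient of variation), while the naive values stood on 2350, 3136 and 1810.

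**Figure D3:**
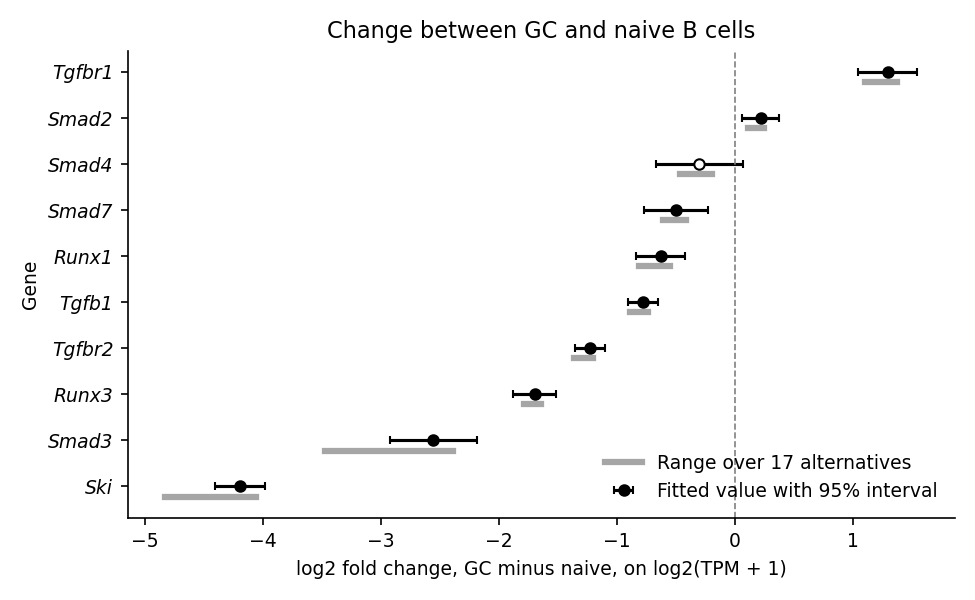
Log2 fold change of the 10 genes, GC minus naive, from log2(TPM + 1), with its 95% interval (black, open circle for the gene not called) and the range over 17 alternative settings (grey). The values run from -4.19 for Ski to 1.30 for Tgfbr1, and the intervals of all genes but Smad4 lie on one side of 0.

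Skil, the close relative of Ski, changed in the same direction by less. It was at 27.3 ± 3.29 TPM in GC against 59.5 ± 6.61 TPM in naive B cells (log2 fold change -1.10, limma adjusted p = 2.38e-04). It belongs to a list of 10 SMAD corepressors and coactivators. Of these, 9 were tested, 4 were higher and 2 were lower (median log2 fold change 0.04), against 35.5% and 30.1% of all tested genes. The other one that was lower was Tgif2, a corepressor with a homeodomain, at 6.33 ± 1.35 against 10.8 ± 0.880 TPM. Among those that were higher were Sin3a and Hdac1, parts of a deacetylase complex, and Kat2b, an acetyltransferase. Their log2 fold changes were 0.61, 0.48 and 0.52.

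Of 15 modulators of the receptors and SMADs, 14 were tested, 6 were higher and 5 were lower (median log2 fold change -0.10). These shares were near the 35.5% and 30.1% of all tested genes. Fkbp1a, which binds the type I receptor and keeps it inactive, was at 228 ± 14.9 TPM in GC against 95.4 ± 1.82 TPM in naive B cells (log2 fold change 1.24), a rise of about the size of that of Tgfbr1. Strap, which binds the receptors and SMAD7, and Pmepa1, which sequesters receptor-activated SMADs, had log2 fold changes of 1.04 and 0.93. The ubiquitin ligases Smurf1 and Smurf2, which SMAD7 brings to the receptor, were lower, with log2 fold changes of -0.61 and -0.45. Rnf111, a ubiquitin ligase for SMAD7 and SKI proteins, was also lower, with a log2 fold change of -0.44.

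Runx1 and Runx3, the genes with the shared promoter stretch printed above, were both lower in GC B cells. Runx3, which is itself induced by TGF-beta in B cells, was measured at 14.4, 12.4 and 13.6 TPM in GC pools 1, 2 and 3 and at 47.1, 46.6 and 43.9 TPM in the naive pools. The means were 13.5 ± 0.973 and 45.9 ± 1.73 TPM, a level 3.40-fold higher in naive B cells, with no overlap. This gave a log2 fold change of -1.70 (SE 0.075, limma adjusted p = 4.43e-06). Runx1 was measured at 13.4, 13.7 and 13.4 TPM in GC pools 1, 2 and 3 and at 20.3, 23.8 and 20.2 TPM in the naive pools. The groups were again apart, with means of 13.5 ± 0.163 and 21.4 ± 2.05 TPM and a smaller log2 fold change of -0.63 (SE 0.086, limma adjusted p = 8.22e-04).

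In naive B cells Runx3 was thus the main RUNX transcript, and in GC B cells Runx1 and Runx3 were at about the same level. The ratio of Runx1 to Runx3 in TPM was 0.931, 1.10 and 0.984 in the GC pools and 0.431, 0.510 and 0.460 in the naive pools. The mean log2 ratio differed by 1.10 (exact permutation p = 0.1, the smallest possible, and 0.1 after adjustment). Runx2 was not tested, with means of 1.02 ± 0.159 and 0.753 ± 0.475 TPM.

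Cbfb, the partner that RUNX proteins need for stable binding to DNA, moved the other way. It was at 139 ± 4.14 TPM in GC against 76.4 ± 5.65 TPM in naive B cells (log2 fold change 0.86, limma adjusted p = 4.57e-05). The list of other RUNX complex genes held 10 genes, of which 7 were tested. Of these, 2 were higher and 2 were lower (median log2 fold change 0.10), against 35.5% and 30.1% of all tested genes. Among the TLE corepressors that RUNX proteins recruit, Tle3 fell from 129 ± 8.32 TPM in naive to 40.1 ± 2.94 TPM in GC B cells (log2 fold change -1.66). Tle1 had a log2 fold change of -0.66 and Tle4 one of 0.36, so that this family did not move together.

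Of 18 genes that TGF-beta commonly induces or represses in other cells, 14 were tested, 6 were higher and 3 were lower (median log2 fold change 0.21), against 35.5% and 30.1% of all tested genes. The 3 lower ones were Skil and, from the 10 genes themselves, Ski and Smad7. Gadd45b, a stress-response gene, was at 187 ± 16.1 TPM in GC against 34.0 ± 4.67 TPM in naive B cells (log2 fold change 2.43). Id2, an inhibitor of E proteins, was at 12.5 ± 1.14 and 3.04 ± 0.713 TPM (log2 fold change 1.75). Klf10, a zinc finger gene named for its early induction by TGF-beta, was at 19.3 ± 1.63 and 5.67 ± 0.510 TPM (log2 fold change 1.61). All of these genes also respond to other signals.

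Of 21 genes of IgA switching and of mucosal B cells, 20 were matched and 11 were tested, and 9 stayed too low to test. Among those tested, 1 was higher and 9 were lower (median log2 fold change -0.66), against 35.5% and 30.1% of all tested genes. No test compared the list with other genes. The one that rose was Jchain, which joins IgA into dimers, at 669 ± 20.3 TPM in GC against 33.3 ± 9.77 TPM in naive B cells (log2 fold change 4.33). Jchain is also a plasma cell marker. The other 4 plasma cell genes measured summed to 131 to 135 TPM in the GC pools and 192 to 212 TPM in the naive pools, with Prdm1 higher and Xbp1, Sdc1 and Irf4 lower in GC B cells. Itgb7, the beta chain of the gut homing integrin, was at 5.10 ± 0.471 and 187 ± 13.6 TPM (log2 fold change -4.95). Ccr6, a chemokine receptor that guides B cells in Peyer's patches, was at 12.7 ± 0.866 and 198 ± 13.7 TPM (log2 fold change -3.86). Il5ra, a receptor chain for a cytokine that promotes IgA secretion, passed the filter only through the naive pools, at 0.619 ± 0.0348 and 14.9 ± 1.24 TPM (log2 fold change -3.29). The constant region gene of IgA was not analysed here.

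**Figure D4:**
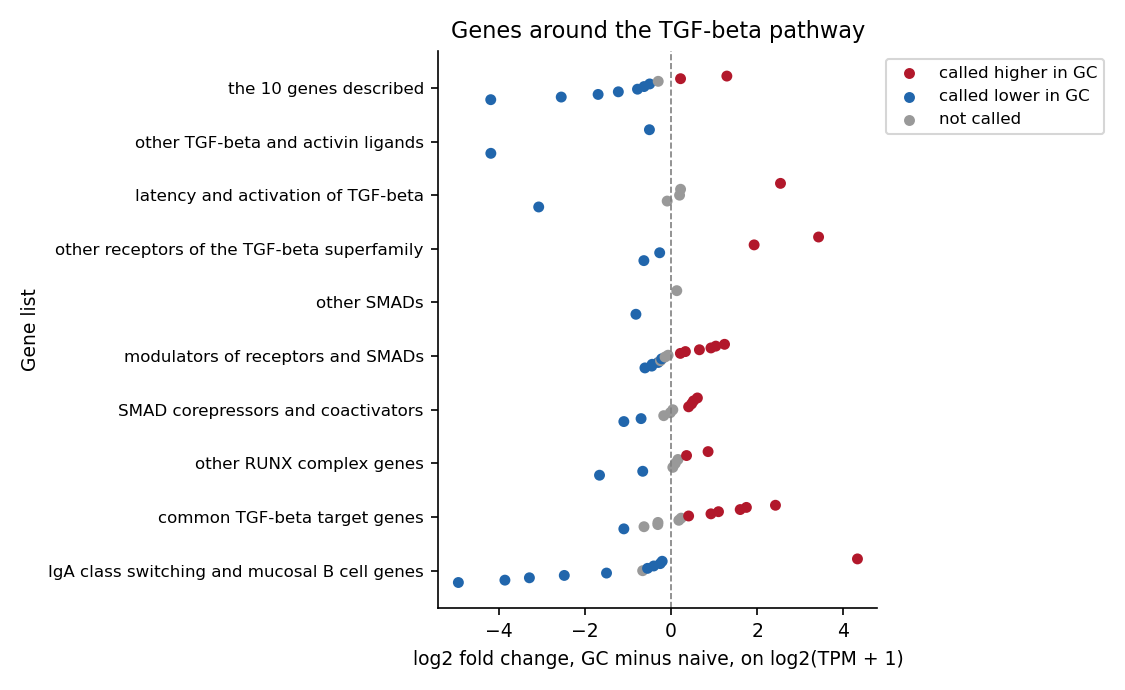
Log2 fold change, GC minus naive, from log2(TPM + 1), for each tested gene of the lists, coloured by call at an adjusted p under 0.05. The 10 genes described lie between -4.19 and 1.30, and the point farthest to the right, at 4.33, is Jchain. Ski and Smad7 are drawn in the first row only.

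Over all lists, 103 matched genes were not among the 10, and 63 of them were tested, with 20 higher, 24 lower and 19 not called. The corresponding shares of all tested genes are the 35.5% and 30.1% given above. The median log2 fold change of these 63 genes was -0.09.

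GC and naive B cell markers followed the labels. The 6 GC B cell genes summed to 1314 to 1367 TPM in GC pools and 52.0 to 58.0 TPM in naive pools. All 6 were called higher, against 35.5% of all tested genes. Fas is one of them, and its direction was set by the sort on Fas. Gcsam, S1pr2 and Rgs13 passed the filter on low values only through the GC pools, so their groups could not overlap. All 6 matched naive B cell genes were called lower, against 30.1% of all tested genes. These 6 summed to 110.02 to 121 TPM in the GC pools and 1630 to 1729 TPM in the naive pools. Of 5 markers of all B cells, 4 were lower and 1, Ms4a1, was higher in GC B cells. The shares of all tested genes were 30.1% lower and 35.5% higher. The 5 markers summed to 3464 to 3513 TPM in the GC pools and 5209.7 to 5302 TPM in the naive pools. Lists of genes used as markers of other cell types were also summed. The 11 epithelial genes summed to 53.8 to 116 TPM in the GC pools and to 133 to 170.1 TPM in the naive pools. Gp2 was at 0 in every pool. Of the 11, 9 were tested, with 2 higher and 5 lower, against 35.5% and 30.1% of all tested genes. The 8 T cell genes summed to 129.7 to 141 TPM in the GC pools and 65.9 to 69.8 TPM in the naive pools. Without Lck, the other 7 summed to 2.40 to 4.88 and 1.78 to 3.62 TPM, ranges that overlapped. Cd3e and Cd28 were too low to test but did not overlap between the groups, as in 70.7% of all tested genes. Their means were 0.637 and 0.157 TPM in GC and 0.233 and 0.0622 TPM in naive B cells. Cd3d, Cd3g, Cd4, Cd8a and Trac overlapped. The means of Cd3d (0.124 and 0.185 TPM) and Cd3g (0.717 and 0.927 TPM) were lower in GC B cells. The 8 myeloid and dendritic genes summed to 14.9 to 17.6 and 10.9 to 16.3 TPM, with Cd68 higher in GC B cells, and without it the other 7 summed to 2.61 to 3.32 and 5.93 to 9.30 TPM. The 8 matched stromal and endothelial genes summed to 23.1 to 25.4 and 122 to 133 TPM, and without Pecam1 the other 7 summed to 0.813 to 1.16 and 0.684 to 1.25 TPM. Whether such cells or genes bear on the values of Tgfb1, Tgfbr2, Ski or any other of the 10 genes was not tested. GC pool 2 had the highest epithelial sum of its group. It had the lowest Tgfb1, Smad4 and Runx3 levels of the GC pools and the highest Tgfbr1, Smad2, Ski and Runx1 levels. For every gene some pool has to be highest and some pool lowest, and a link to the epithelial genes was not tested.

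The depth of the libraries, estimated from how low FPKM values are spaced, was about 9950000 to 10950000 reads in the GC pools and 9750000 to 16100000 reads in the naive pools. The library kit does not mark strand, so reads could not be assigned by strand where RefSeq noncoding genes overlap Tgfbr1 (Gm32435), Tgfbr2 (Gm31292), Smad3 (Gm51710), Smad7 (Gm41776) and Runx1 (Gm30281).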

How the data were processed

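Reads of 3 GC and 3 naive pools were demultiplexed with CASAVA 1.8, trimmed with cutadapt 1.9 and quantified with RSEM 1.2.25 on the mouse transcriptome (NCBIm38), and the authors deposited FPKM per gene and pool. FastQC and edgeR are also named in the submitters' processing notes, with no role for edgeR. FPKM was rescaled to TPM, so that each pool summed to 1000000. Of 39179 Ensembl identifiers, 33398 had a symbol in the gene tables used. A gene was tested if 3 or more of the 6 pools reached 1 TPM. The test was limma (version 3.58.1, R 4.3.3) on log2(TPM + 1), using lmFit and trended eBayes, two-sided, with Benjamini-Hochberg adjustment over all 12785 genes and a threshold of 0.05. The fit was first tested on simulated data.

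Ratios of 2 genes within a pool were compared with the exact permutation test over pools. Because FPKM holds no counts, no count test was made. Between 66.3% and 70.4% of low values lay within 0.15 of a whole number of reads, so the depths and fragment numbers given are approximate. Pools are numbered 1 to 3 in both populations, and nothing states that equal numbers share mice, so the fit was unpaired. All 10 genes were named whatever their values, and of each pathway list up to 3 called genes per direction with the largest absolute change. Genes not called or not tested that are named were chosen after their values were seen. Some genes of these lists are not reported here and were left out of the counts. The 10 genes and all lists were chosen with earlier results of these data known. Alternatives covered the pseudocount, the filter, FPKM as deposited, 2 scalings, the trend, the replicate block, each pool left out and, added after seeing the data, a correction for transcript length and GC content. Promoter sequence came from RefSeq (GRCm38.p6), and windows for Smad2, Smad4 and Smad7 were not used here.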

Additional observations from a re-analysis of the deposited data

How the results depend on the processing

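Of 194 fold changes and ratio differences under alternative settings, 184 kept their direction and, for fold changes, their side of the threshold, and the 10 others (Smad2 and Smad4) kept their direction. Of 51 counts of genes called, 45 stayed within 1.5 times the count reported. The number of genes called ranged from 7656 to 8101 when each pool was left out in turn, and from 6879 (mean of at least 5 TPM) to 8639 (no filter) under the other settings. Tgfb1, Tgfbr1, Tgfbr2, Smad3, Smad7, Ski, Runx1 and Runx3 kept their calls under all 17 alternatives. Under quantile normalization, and under the correction for transcript length and GC content with or without the replicate block, 1 gene of the 10 was called higher instead of 2, and 8 were called lower instead of 7. In these 3 cases Smad2 was no longer called, at 0.14 with quantile normalization (adjusted p = 0.0813) and 0.11 with the correction (adjusted p = 0.133, or 0.170 with the block), and Smad4 was called. With 1 pool left out, 1 to 2 genes were called higher and 7 to 8 lower. The cause was not tested. The log2 fold change of Ski ranged from -4.83 to -4.06 and that of Smad3 from -3.48 to -2.39, the larger values in size with smaller pseudocounts. Over the 11031 genes with a known length and GC content, the median log2 fold change was 0.04 without the correction and -0.08 with it. The Smad2 to Smad3 difference was 2.77 with a pseudocount of 1 TPM, against 3.72 without one.

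Same-numbered pools deviated together only weakly (r = 0.083, 0.022 and 0.046 over genes), so the numbers are not shown to pair the samples, although each GC pool correlated best with the naive pool of its own number. Naive pool 2 correlated slightly better with GC pool 3. With the replicate block, 7960 genes were called, and 2 and 7 of the 10 genes were called higher and lower, as without it. The mean log2 ratio differences of 2.59, 3.72 and 1.10 were the same under the block, where the exact sign-flip test cannot go below p = 0.25. Depth limits Smad3 most, with 22 to 49 fragments in the GC pools.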
